A study of Mus musculus with 2 samples.

Results

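The genes examined here encode CTCF and the cohesin machinery, and were placed on the boundary map of mouse olfactory sensory neurons: Ctcf, the ring genes Rad21, Smc3 and Stag1, the loader genes Nipbl and Mau2, and the release genes Wapl, Pds5a and Pds5b. These 9 genes were taken by name from the GENCODE M21 annotation of GRCm38, by a rule that uses no measured value, out of 21755 protein-coding genes on the 20 chromosomes of the map. The members were, however, chosen with earlier results of these data known. All 9 were found, and none is on X. Cohesin is a ring of an SMC1 protein, SMC3 and RAD21 with a STAG subunit, and it enlarges loops of DNA until it meets CTCF, a zinc finger protein that binds a long DNA motif and is found at many domain borders. NIPBL and MAU2 form the loader of cohesin, and NIPBL also drives loop growth, while WAPL together with PDS5A or PDS5B releases cohesin from DNA. In cells that no longer divide, such as neurons, cohesin still folds chromosomes into loops.

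The map comes from in situ Hi-C, which joins DNA ends that lie close together in fixed nuclei and counts the joined pairs. The cells were mature sensory neurons that express the receptor gene Olfr16 (MOR23), sorted by FACS from MOR23-GFP mice. The animals were adult and of mixed sex, the strain is listed as Not Specified, the tissue is olfactory epithelium, and treatments and modifications are given as none. Replicate 1 held 28000 cells and replicate 2 held 24400 cells, fixed with 1% formaldehyde, and both belong to 1 group with no control population. A single list of 7435 boundaries, each a 5 kb interval at which contacts across it are depleted, was called by the authors on both replicates together. Values per replicate and read depth were therefore not analysed here, and no spread between replicates or test stands behind any value. Each boundary carries the authors' strength score (up to 4.38, median 0.520), and a class that is Strong for scores from 0.5 and Weak below; 51.8% of the list is Strong. The list holds no expression value, so the labelled cell type and the activity of the 9 genes were not checked here.

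A gene start is the 5′ end of the annotated gene. By that measure Pds5a and Mau2 started inside a boundary, Pds5b 3.74 kb and Nipbl 5.54 kb outside one. Next came Smc3 at 39.6 kb, Stag1 at 42.2 kb and Rad21 at 43.3 kb, then Ctcf at 71.6 kb and Wapl at 98.9 kb. Between 5.54 and 39.6 kb lay no member. The 3 ring genes fell within 5 kb of each other, the width of 1 boundary, so their order is not resolved. Thus 4 of 9 starts were within 10 kb of a boundary, both loader genes and both PDS5 paralogues, against 12.5% of the 21544 protein-coding starts between the first and last boundary of their chromosome. Inside a boundary were 2 of 9, against 3.29%. The median distance was 39.6 kb for the 9 genes and 57.8 kb for all coding starts (quartiles 25.4 and 106 kb). The members' median was 5.54 kb when read from principal transcript starts, because Stag1 moved from 42.2 to 0 kb. It was 163 kb when measured to Strong boundaries alone. No median of all coding starts is given here by either measure, so neither value is to be set against 57.8 kb. These are descriptions of 1 list, with no test.

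**Figure D1:**
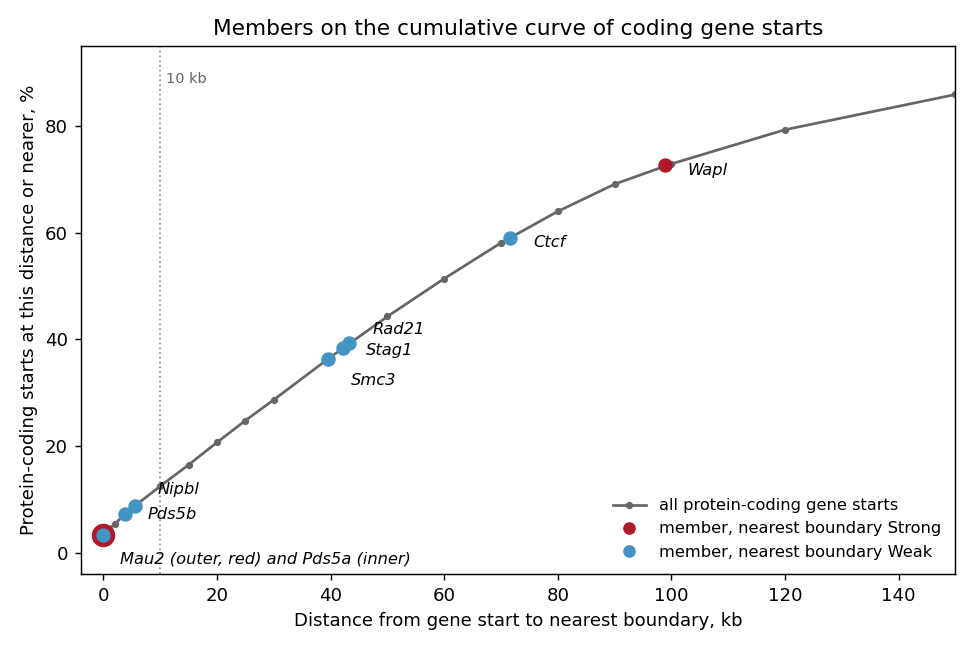
Cumulative share of protein-coding gene starts (y axis, %) against distance to the nearest boundary (x axis, kb; drawn to 150 kb), with the 9 members as points coloured by the class of that boundary. Pds5a, Mau2, Pds5b and Nipbl lie left of the dotted line at 10 kb, the other 5 between 39.6 and 98.9 kb; Mau2 is the larger point under Pds5a.

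The boundaries nearest to the members were mostly of the lower class. For 7 of 9 members the nearest boundary was Weak, against 37.1% of all coding starts, and Mau2 (score 0.528) and Wapl (0.878) had a Strong one. Nearest scores ran from 0.202 at Ctcf to 0.878 at Wapl with a median of 0.387. Of the 4 starts within 10 kb of a boundary, 3 were beside a Weak one, against 36.4% of all coding starts that near. The score at Mau2 lay just above the class limit. Of all 21 boundaries that hold a member start, flank it or lie in a member gene, 8 were Strong and 13 Weak, where 51.8% of the list is Strong. Their scores ran from 0.202 to 1.70 with a median of 0.398, against 0.520 for the list. Both ends of that range are flanking boundaries, the lowest upstream of Ctcf and the highest upstream of Smc3.

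**Figure D2:**
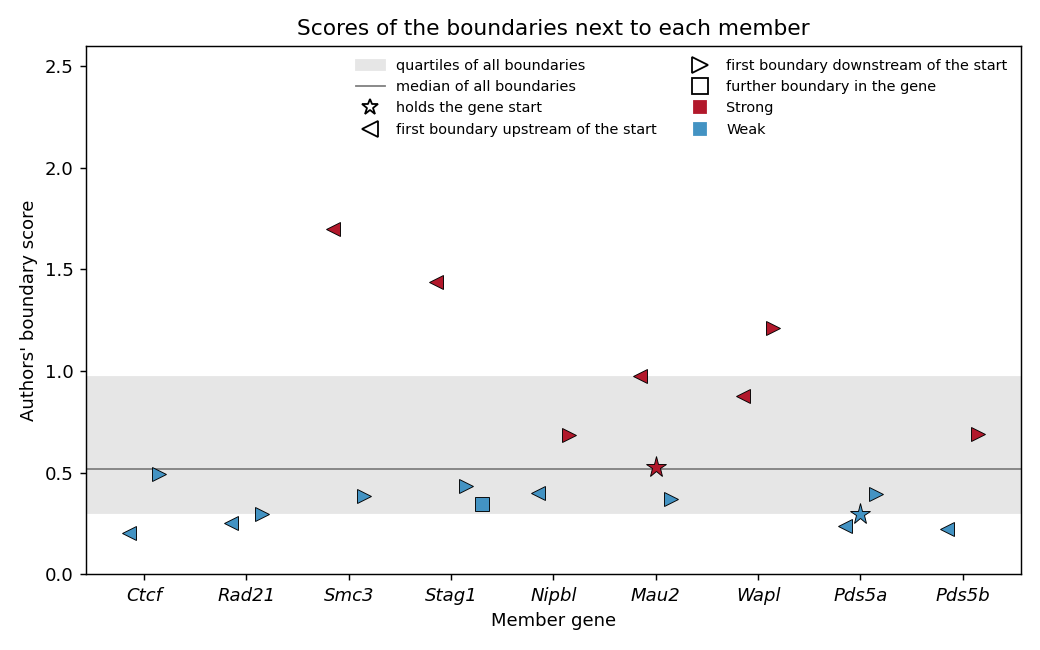
Authors' boundary score (y axis, no unit) of the 21 boundaries next to the 9 members (x axis), with the first boundary on each side of the start, any that holds the start and any further one in the gene; the band gives the quartiles of all 7435 boundaries (0.301 and 0.969) and the line their median. Of the 21, 4 score above the upper quartile: those upstream of Smc3 (1.70), Stag1 (1.44) and Mau2 (0.975) and downstream of Wapl (1.21).

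The gene of the insulator protein lay well inside an interval. Ctcf (ENSMUSG00000005698.15) spans 105636568 to 105682922 of chromosome 8 on the + strand and held no boundary. Upstream, 71.6 kb from its start, was a Weak boundary (105560001 to 105565000) with a score of 0.202, which only 0.565% of the list equals or undercuts. It lies in an intron of Atp6v0d1, a proton pump subunit gene that starts 1.05 kb away. Downstream, at 198.4 kb, the next boundary (105835001 to 105840000) was Weak too, but with a score of 0.492 near the class limit, overlapping coding sequence of Tsnaxip1. The nearest Strong boundary was 301.6 kb off. Ctcf was thus held between boundaries of the lower class on both sides.

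Between those boundaries lay 270 kb with 12 coding starts, Ctcf included, the most among the 7 members that start between boundaries. The nearest was Agrp, a feeding neuropeptide gene, whose start lies 0.825 kb downstream of that of Ctcf on the opposite strand. Ripor1 (31.3 kb), the actin regulator gene Carmil2 (49.7 kb), the telomere protein gene Acd (64.5 kb), the cell polarity gene Pard6a (64.6 kb) and Atp6v0d1 (70.5 kb) followed. Of the 7415 intervals between adjacent boundaries, 53.4% are that long or shorter.

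Among the ring genes, Rad21 (ENSMUSG00000022314.10, chromosome 15, 51962240 to 51991747, - strand) was the sole coding start between 2 Weak boundaries. Its product is the kleisin that closes the ring. The boundary 43.3 kb upstream (52035001 to 52040000) scored 0.251 and the one 91.75 kb downstream (51895001 to 51900000) 0.295. The 135 kb between them held no other coding start, and 7.98% of coding starts lie in an interval that short or shorter. The upstream boundary overlaps the pseudogene Gm19236 and lies 0.107 kb from the start of Aard, and the downstream one overlaps the noncoding genes Gm34678 and Gm48923. The nearest coding start to the downstream boundary is that of Utp23, a ribosomal RNA processing gene, at 17.6 kb.

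Smc3 (ENSMUSG00000024974.10, chromosome 19, 53600398 to 53645833, + strand) encodes one of the SMC arms of the ring. Its 3′ end, not its start, carried a boundary. The Weak boundary at 53640001 to 53645000, score 0.387, overlapped exons 24 to 29 of the 29 exons of its principal transcript. It ended 0.833 kb before the end of the gene. On the other side, 205.4 kb upstream, lay the highest-scored boundary of the 21 (53390001 to 53395000, score 1.70, Strong), at or above 93.0% of the list's scores. That boundary holds the start of Smndc1, a splicing factor gene, and of the noncoding gene AC133451.1. The 245 kb between them held 3 coding starts, those of Smc3, Nutf2-ps1 (11.3 kb away) and the phosphatase gene Dusp5 (71.3 kb). The Smc3 start was 83.8% of the way along that interval in the direction of transcription.

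Stag1 (ENSMUSG00000037286.15, chromosome 9, 100597798 to 100959375, + strand), the longest member at 362 kb, encodes a subunit that binds the ring and contacts CTCF. Its placement depended on which start was read. The 5′ end of the gene is that of 1 coding transcript, Stag1-205, and lay 42.2 kb from the nearest boundary. The principal transcript, Stag1-206, starts 45.6 kb further along at 100643448, inside that same boundary (100640001 to 100645000, Weak, score 0.435), and so do 10 of the 17 annotated transcripts and 4 of the 7 coding ones. RefSeq places the Stag1 start at the same base. Read by principal transcripts, 3 of 9 members started inside a boundary and 5 of 9 within 10 kb, against 3.28% and 12.4% of all coding genes. No other member moved by as much as 1 kb.

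A second boundary crossed Stag1 near its end (100920001 to 100925000, Weak, score 0.345), 89.8% of the way along the gene in intron 22 of the 34-exon principal transcript. It lies 110 kb from the nearest coding start, that of the mitochondrial enzyme gene Pccb. Upstream of the gene the first boundary was Strong (100430001 to 100435000, score 1.44), intergenic and 162.8 kb from the 5′ end, with Il20rb, a cytokine receptor gene, as the nearest coding start at 51.8 kb. The 205 kb interval up to the boundary in Stag1 also held Slc35g2 (26.7 kb), the adaptor gene Nck1 (51.7 kb) and Il20rb (111 kb), all on the opposite strand.

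The stretch before the principal start of Stag1 is shown because it lies within the boundary and a pair of CTCF consensus matches follows it. Sequences here are RefSeq's, GRCm38.p6, 5′ to 3′ along the gene, with capitals for GC boxes (GGGCGG) and CCAAT boxes (CCAAT), each searched on both strands; the motifs were counted separately. This one is chr9:100643198-100643447, + strand.
Stag1: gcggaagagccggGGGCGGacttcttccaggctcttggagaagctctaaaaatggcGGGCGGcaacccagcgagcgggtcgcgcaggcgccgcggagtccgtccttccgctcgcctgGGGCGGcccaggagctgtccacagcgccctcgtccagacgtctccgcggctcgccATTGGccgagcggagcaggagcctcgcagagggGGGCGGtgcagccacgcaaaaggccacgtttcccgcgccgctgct

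It held 4 GC boxes, 1 CCAAT box and 31 CpG pairs in 250 bases. A GC box is present in 32.7% and a CCAAT box in 33.8% of the 32851 promoters of that length in the RefSeq table, whose median is 6 CpG pairs, and 5.19% have at least as many CpG pairs as Stag1.

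Both loader genes started within 10 kb of a boundary, Mau2 inside one and Nipbl outside. Mau2 (ENSMUSG00000031858.16, chromosome 8, 70016123 to 70042734, - strand) began at base 2734 of a 5 kb Strong boundary (70040001 to 70045000, score 0.528). Sugp1, which encodes a splicing-associated protein, starts 79 bases away on the opposite strand, so 1 boundary holds both starts of a divergent pair. It overlaps untranslated and coding exons of both genes and no other gene. Of the 8 annotated Mau2 transcripts, 7 start inside it, including all 4 coding ones.

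Neighbouring boundaries of Mau2 lay 192.3 kb upstream (70235001 to 70240000, Strong, score 0.975, in Sugp2 and 0.535 kb from the start of Armc6) and 177.7 kb downstream (69860001 to 69865000, Weak, score 0.369, in Pbx4). On the side of Sugp1 the interval held 11 coding starts, the nearest those of Tm6sf2 (30.2 kb) and Hapln4 (40.7 kb). On the side of the Mau2 gene it held 5, with Gatad2a, a chromatin remodelling gene, nearest at 46.4 kb.

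The bases between the Mau2 and Sugp1 starts are shown because both genes of the boundary face away from them. They are chr8:70042735-70042812, written along the - strand.
Mau2: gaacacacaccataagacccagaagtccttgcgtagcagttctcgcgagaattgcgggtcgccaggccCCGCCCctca

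The stretch holds 1 GC box, and neither CCAAT nor a TATA box (TATAAA, on either strand) was found in the 250 bases before the Mau2 start. The RefSeq table also lists a second Mau2 start, 13.2 kb inside the gene and outside the boundary.

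Nipbl (ENSMUSG00000022141.7, chromosome 15, 8290617 to 8444463, - strand) encodes the large loader subunit. Its single annotated transcript begins 5.54 kb from an intergenic Weak boundary on its upstream side (8450001 to 8455000, score 0.398). A Strong boundary (8360001 to 8365000, score 0.685) crosses the gene 53.3% of the way along, over exons 7 and 8 of 47, 79.5 kb from the start. Its first 79.5 kb thus fill nearly all of an interval of 85 kb with no other coding start. Of all coding starts between boundaries, 0.667% lie in an interval that short or shorter. The remaining 69.4 kb of the gene lie beyond the Strong boundary.

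Wapl was the member whose start lay farthest from any boundary, and the sole one with Strong boundaries on both sides. Wapl (ENSMUSG00000041408.18, chromosome 14, 34673928 to 34747983, + strand) encodes the protein that opens the ring. The boundary 98.9 kb upstream (34570001 to 34575000, score 0.878) overlaps coding sequence of Ldb3, a muscle gene. The one 101.1 kb downstream (34775001 to 34780000, score 1.21) is intergenic and 27.0 kb past the end of the gene. The start therefore lay 49.5% of the way along its 200 kb interval, and the whole gene was inside. Its companions there were Opn4, the melanopsin gene, at 73.8 kb and Ldb3 at 85.2 kb. A noncoding gene, 5830448L01Rik, starts 165 bases from Wapl on the opposite strand.

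Both PDS5 genes are on chromosome 5 and both started in or near a Weak boundary with a score under the list's lower quartile of 0.301. Pds5a (ENSMUSG00000029202.12, 65605721 to 65698273, - strand) began at base 3273 of the boundary at 65695001 to 65700000, whose score of 0.297 equals or exceeds 24.3% of the list and which overlaps no other gene. Both coding transcripts marked as principal start inside it as well. Its neighbours were Weak too, at 296.7 kb upstream (65995001 to 66000000, score 0.235, in 9130230L23Rik) and 168.3 kb downstream (65525001 to 65530000, score 0.394, in an intron of Smim14). The nearest coding starts were N4bp2 upstream (65.2 kb) and the ubiquitin-conjugating enzyme gene Ube2k downstream (161 kb).

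Pds5b (ENSMUSG00000034021.15, 150673739 to 150810690, + strand) began 3.74 kb after a Weak boundary (150665001 to 150670000) with a score of 0.224, as low as 7.21% of the list. That boundary holds the start of N4bp2l2, 7.56 kb away on the opposite strand. A Strong boundary (150760001 to 150765000, score 0.690) crosses the gene 64.8% of the way along, over exons 17 and 18 of 35. The 90 kb interval between them holds no other coding start, and 1.03% of coding starts lie in one that short or shorter. Pds5b and Nipbl therefore had the same layout: a Weak boundary within 10 kb before the start and a Strong one mid-gene. The short interval with 1 coding start is the stretch between those boundaries, so it is not a separate trait. The layout was read off these loci, and its share among all coding genes was not counted.

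The sequences before the PDS5 starts are shown because they lie in or near these boundaries. The first is chr5:65698237-65698486 on the - strand, 250 bases ending at the RefSeq start of Pds5a, which is 37 bases inside the GENCODE gene; all of it is within the boundary. The second is chr5:150673577-150673738 on the + strand, 162 bases ending at the Pds5b start.
Pds5a: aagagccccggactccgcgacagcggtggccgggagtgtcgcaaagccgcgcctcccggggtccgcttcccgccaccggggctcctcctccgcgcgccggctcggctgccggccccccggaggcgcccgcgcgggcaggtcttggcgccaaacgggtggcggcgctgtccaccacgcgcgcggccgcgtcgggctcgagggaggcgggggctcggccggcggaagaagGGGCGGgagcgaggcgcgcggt
Pds5b: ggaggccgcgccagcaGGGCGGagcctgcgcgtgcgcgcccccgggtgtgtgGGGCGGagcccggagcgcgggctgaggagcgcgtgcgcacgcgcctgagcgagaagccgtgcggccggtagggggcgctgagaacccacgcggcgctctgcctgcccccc

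These held 1 and 2 GC boxes. In the whole 250 bases before the RefSeq start, Pds5a had 44 CpG pairs, a number that 0.539% of the RefSeq promoters reach, and Pds5b 36, which 2.58% reach. The other members of the table had 40 (Ctcf), 32 (Wapl), 31 (Stag1), 26 (Smc3) and 18 (Mau2), so all 7 members listed there were above the median of 6; the window before the second Mau2 start had 1. At these starts all 7 also had a GC box, which 32.7% of promoters have, a share not matched for CpG pairs. That share counts every listed start, and the window before the second Mau2 start had no GC box. None of the 7 members had a TATA box, which 12.4% of promoters have, and for 7 members that is near the share. Rad21 and Nipbl were not in the table.

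**Figure D3:**
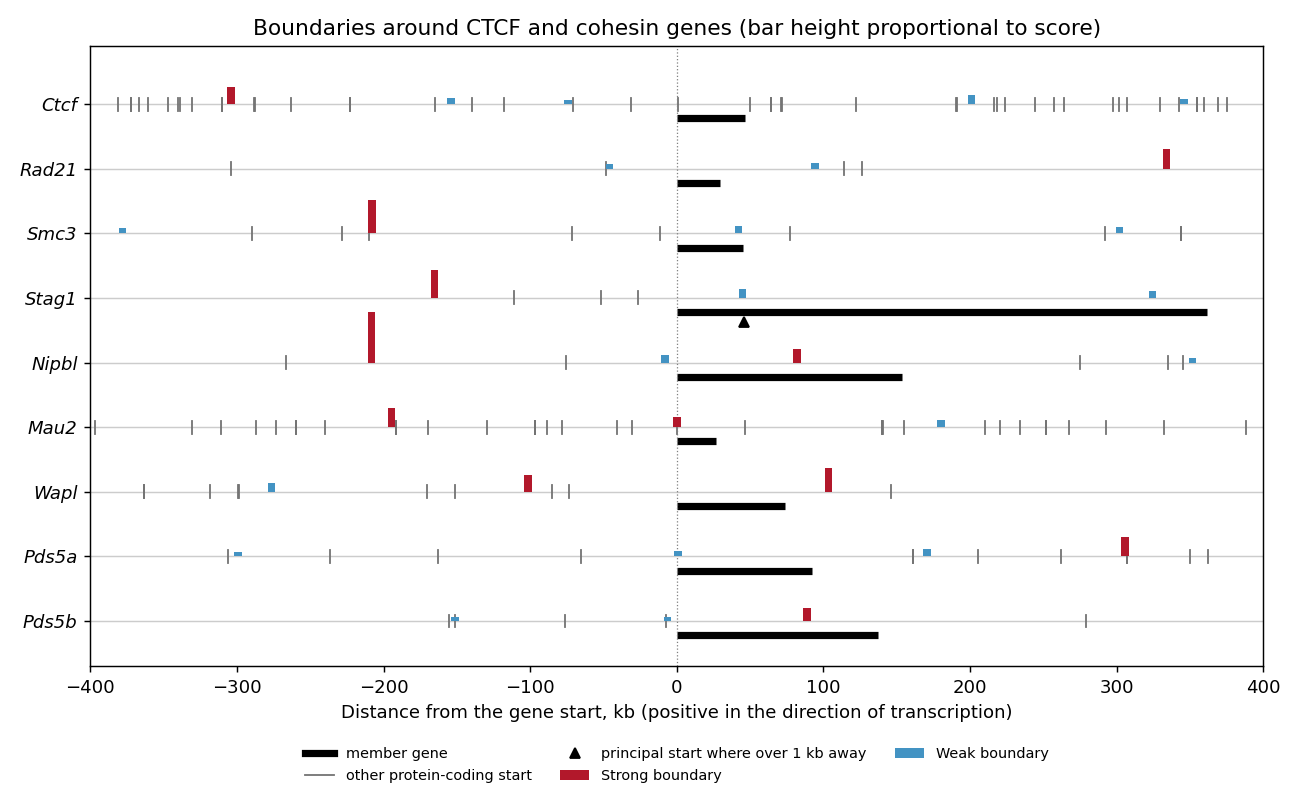
The 9 loci aligned at the gene start (x axis, kb, positive along transcription), with member genes as black bars, other protein-coding starts as grey ticks and boundaries as bars of height proportional to score. The Weak boundary at or just before the start and the Strong one in mid-gene are seen at Nipbl and Pds5b; the triangle marks the principal start of Stag1 inside its Weak boundary.

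Boundaries crossed the members' bodies in 6 of 9 cases, against 15.5% of all coding genes, but a longer gene has more room for one. Of the 4 members under 50 kb, Smc3 and Mau2 had a boundary and Ctcf and Rad21 none, where 9.73% of coding genes of that length have one. In the 50 to 150 kb range Pds5a and Pds5b had one and Wapl none, against 26.4%. Above 150 kb both Stag1 and Nipbl had one, against 55.2%. With 2 to 4 members per class these are counts, not rates. The 7 boundaries lay at the start in Mau2 and Pds5a, at the principal start and near the end in Stag1, mid-gene in Nipbl and Pds5b, and at the last exons in Smc3.

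Of the 7 members that start between boundaries, 3 (Rad21, Nipbl and Pds5b) were the sole coding start of their interval, against 8.85% of coding starts between boundaries. That share covers intervals of every length and was not matched for length. The intervals of these 3 members, 85 to 135 kb, were also the shortest of the 7. The other 4 ran from 200 kb to 270 kb with 3 to 12 coding starts. The median coding start between boundaries lies in an interval of 275 kb (quartiles 195 and 415 kb). Within 500 kb of a member start there were 3 to 6 boundaries, where the median coding start has 4.

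**Figure D4:**
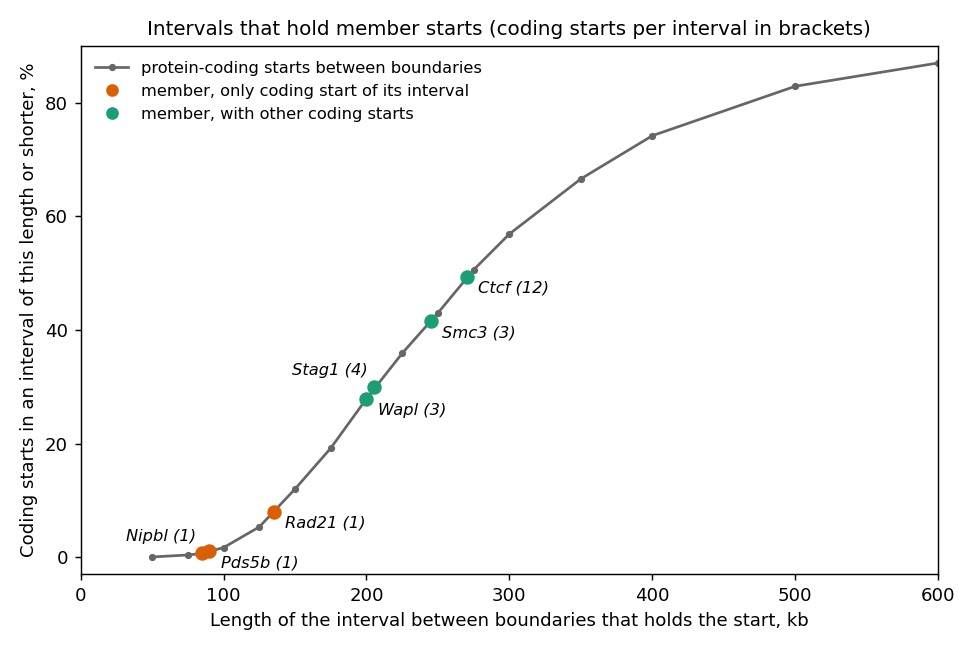
Share of protein-coding starts (y axis, %) in intervals of a given length or shorter (x axis, kb; drawn to 600 kb), with the 7 members that start between boundaries and, in brackets, the coding starts in their interval. Nipbl and Pds5b sit at the foot of the curve at 85 and 90 kb, Rad21 at 135 kb, and the others at 200 to 270 kb.

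Since these genes encode CTCF and its partners, the 21 boundaries were searched for the CTCF core consensus on both strands, with no mismatch. A match lay in or within 10 kb of 5 of 21 boundaries, against 23.1% of all boundaries, a share near that background. In the 5 kb interval itself 4 of 21 had one, against 6.27%. A match describes letters only, and CTCF occupancy was not analysed here. The boundaries that hold the starts of Mau2 and Pds5a, and those just upstream of Pds5b and Nipbl, had no exact match within 10 kb. Most boundaries have none, as 23.1% of all have one. With at most 1 mismatch the boundaries at Mau2, Pds5a, Pds5b and Nipbl had 5, 5, 4 and 3 matches. By that setting 87.9% of all boundaries have a match.

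The matches are listed because they show where the exact consensus lies in or near the members' boundaries, written along the consensus with its 12 bases in capitals. The pair at Stag1 lies at chr9:100643565-100643592 and chr9:100643623-100643650, both + strand. The others lie at chr15:51899303-51899330 (downstream of Rad21, - strand), chr19:53394776-53394803 (upstream of Smc3, + strand), chr14:34570477-34570504 (upstream of Wapl, - strand) and chr5:65535551-65535578 (downstream of Pds5a, + strand).
Stag1 first: cagcgcggCCAGCAGAGGGCggtcggga
Stag1 second: ggaaaatgCCACCAGATGGCgggttagg
Rad21: gacatgggCCAGCAGATGGCgccaaatg
Smc3: caaaacttCCACTAGGTGGCagtcagga
Wapl: ttcatcgaCCACCAGGGGGCggaagttg
Pds5a: tcttatcaCCACTAGGGGGCtctgctag

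Stag1 alone had exact matches in a boundary at its own start, read from the principal transcript. With at most 1 mismatch, matches within 10 kb numbered 3 there and 5 each at the boundaries that hold the Mau2 and Pds5a starts. Both exact matches at Stag1 read along the gene and lie in exonic untranslated sequence just after the principal start. The matches near Rad21, Smc3 and Wapl are inside the boundary interval, in an intron of Gm48923, in intergenic sequence and in an intron of Ldb3. The one near Pds5a is 5.56 kb from its boundary, in exonic sequence within Smim14 and Gm42725.

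Other genes of the pathway were placed by the same rule: 36 cohesin, insulator, condensin and SMC5/6 genes, all found. Of these, 4 started within 10 kb of a boundary (background 12.5%) and 1 inside, with a median distance of 43.1 kb. Smc1b, the meiotic paralogue of the SMC1 arm, started inside a Strong boundary scored 0.602, and Ncapg, a condensin subunit gene, 0.082 kb from one scored 0.584. Stag3, the meiotic STAG gene, was 4.76 kb from a Strong boundary (0.620) and Ncaph2, another condensin gene, 5.72 kb from a Weak one (0.471). Of the somatic ring genes outside the members, Smc1a, the SMC1 arm of somatic cells, lay 63.6 kb and Stag2 129 kb from a boundary, both on X. Ctcfl, the germline paralogue of Ctcf, lay 24.5 kb from a Strong boundary (0.988), Rec8 53.0 kb from a Weak one (0.263) and Rad21l 81.5 kb from a Strong one (1.59). By group, 2 of 6 cohesin subunit genes, 2 of 8 condensin genes, 0 of 9 cohesin regulators, 0 of 7 genes of the insulator and partner group and 0 of 6 SMC5/6 genes were near. Their nearest boundary was Strong for 20 of 36 and Weak for 16 (44.4%), beside the 37.1% of all coding starts whose nearest boundary was Weak.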

How the data were processed

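In situ Hi-C data from 2 biological replicates were used as 1 deposited boundary list on GRCm38, the build that the series design text and the submitters' processing notes name. The deposited score column gives the authors' boundary strength score, called on the combined contact lists of both replicates per the series design text; how it was computed, with which caller, window and filters, is not given in the sources used here. It therefore served only to describe and rank boundaries within the list. Per-sample depth is unknown.

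Starts, transcripts and exons came from GENCODE M21, sequence from RefSeq GRCm38.p6, both of the same build. Distances run from the start to the edge of the 5 kb interval; differences under 5 kb are within its width. Coding starts outside the first to last boundary (211) were left out. The principal transcript is APPRIS's, lowest number, then longest. Promoters are the 250 bases before RefSeq starts, printed without annotated UTR bases. Python 3.11.15 and NumPy 2.4.6 were used, with the placement and motif code tested on simulated data.

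Named genes are the members, genes that start with them or overlap or lie nearest to their boundaries, and listed pathway genes near a boundary or paralogous to a member. The rule for the members uses no measured value, but members and lists were chosen with earlier results of these data known. No test was made.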

Additional observations from a re-analysis of the deposited data

How the results depend on the processing

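The count of 4 members within 10 kb of a boundary became 3 within 5 kb, 4 within 25 kb or measured to the midpoint, 5 by principal transcripts and 6 by any annotated transcript. It fell to 2 for starts inside a boundary and to 1 (Mau2) with Strong boundaries only, and reached 7 within 50 kb. Of all coding starts, 3.29% lay inside a boundary, 8.35% within 5 kb, 24.8% within 25 kb and 44.3% within 50 kb. By principal transcripts 12.4% were within 10 kb. No such share is given here for any annotated transcript, the midpoint or Strong boundaries only. Smc3 enters the 6 only through transcripts not annotated as coding. Members with a boundary in the gene numbered 6, where 15.5% of all coding genes have one. They also numbered 6 by the midpoint of the boundary, and 3 with Strong boundaries only. No share of all coding genes is given here for either of those settings. The median distance of 39.6 kb was 42.1 kb to the midpoint, 5.54 kb by principal transcripts, because Stag1 moved from 42.2 to 0 kb, and 163 kb to Strong boundaries, which lay 79.46 to 331.7 kb away for the 7 members whose nearest boundary was Weak. The median interval of 200 kb became 700 kb between Strong boundaries, an alternative chosen after seeing the data. Boundaries with a CTCF match numbered 5, 4 in the interval alone and 20 with at most 1 mismatch, where 87.9% of all boundaries match. Because the list was called on both replicates combined, no boundary can be called present or absent in either one, and the depth behind each score is unknown.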
